A study of Mus musculus with 6 samples.

Results

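The G2 and mitosis genes are 42 mouse genes, named from textbook knowledge of the cell cycle, whose products drive a cell from late G2 through chromosome segregation and cytokinesis. The members were the rows of the expression tables that carry these 42 gene symbols, with values summed over the transcripts of each symbol. All 42 were found among 23418 gene symbols, and all 42 were among the 10799 symbols with enough signal to be tested.

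The libraries were made from palatal mesenchyme of mouse embryos of mixed background at embryonic day 12.5 (E12.5) and 13.5 (E13.5), the ages at which the palatal shelves grow out. Mutants carried Osr2RFP/- and controls Osr2RFP/+, so every embryo had 1 allele in which a red fluorescent protein (RFP) reports Osr2, a zinc finger transcription factor of palatal shelf growth. Shelves were digested with trypsin and RFP-positive cells were sorted by flow cytometry. The values therefore describe the sorted fraction, which also held globin RNA, described further on. There was 1 mutant and 1 control library at E12.5, and there were 2 of each at E13.5. Neither the molecular nature of the Osr2 alleles nor the number of embryos behind a library is given in the labels. The p-values therefore cover no more than the spread seen among the 6 libraries. Tests within 1 age or 1 genotype took that spread from the E13.5 replicates alone.

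Entry into mitosis is driven by Cdk1 bound to A- and B-type cyclins, which Cdc25 phosphatases switch on. The spindle assembly checkpoint then holds cells in metaphase until every kinetochore is attached, after which Cdc20 and the anaphase-promoting complex mark cyclin B and securin for destruction. Most of these genes are transcribed mainly in G2 and M, so in bulk RNA their level tends to follow the share of cells in those phases, and growing palatal mesenchyme is a dividing tissue. In bulk samples, fewer cells in G2 and M and less RNA of these genes per cell cannot be told apart.

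The libraries had FPKM sums of 154919 to 189855 and an estimated 14100000 to 17970000 fragments each (FPKM counts sequenced fragments relative to transcript length and library depth). Osr2 had 163 FPKM in the E12.5 mutant and 215 in the E12.5 control, and 68.5 and 88.4 in the E13.5 mutants against 138 and 152 in the E13.5 controls (limma adjusted p = 0.0409 at E13.5). The 11 mesenchyme markers, which include Osr2 itself, summed to 934 to 1159 FPKM. Markers of epithelium, endothelium, leukocytes, glia and muscle summed to at most 7.28 FPKM each. Xist, the RNA that coats the inactive X, was at 129 to 141 FPKM in the E12.5 pair and in E13.5 mutant replicate 2 and at most 0.0194 elsewhere. The sample titles carry a number, 2962 for the E12.5 pair against 3047 (mutant replicate 1) or 3048 at E13.5, so age and this number cannot be told apart.

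The members share promoter features that were not themselves used to choose them. Many genes of this phase are known to carry a cell cycle genes homology region (CHR), which the DREAM and MuvB complexes bind, and CCAAT boxes, which NF-Y binds. A high share among genes chosen for this phase was therefore likely beforehand. RefSeq promoters on GRCm38.p6, 250 bases before to 50 after the start, were given for 37 members. The CHR letters TTTGAA or TTTAAA, on either strand, stood in 31 of the 37 (83.8%), against 30.6% of all 27025 genes of the table and 21.7% of the 8121 tested genes in it. CCAAT, on either strand, stood in 29 of the 37 (78.4%), against 41.1% and 43.6%. Both stood together in 26 of the 37 (70.3%), against 12.2% and 9.06%. Within 100 bases before to 50 after the start, both stood in 24 members (64.9%), against 3.50% of all genes and 2.71% of tested genes. The GC box GGGCGG, on either strand, stood in 29 members (78.4%), close to the 71.9% of tested genes. The E2F letters searched, TTTCCCGC, TTTGGCGC, TTTGGCGG and TTTCGCGC on either strand, stood in 1 member (2.70%), against 5.39% of tested genes. No searched motif contains another, though neighbouring matches can share their end bases.

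**Figure D1:**
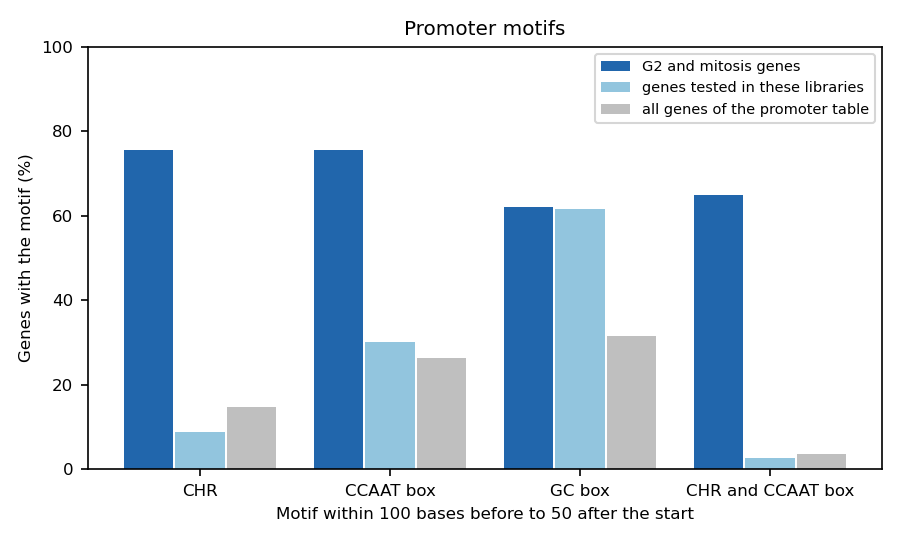
Share of genes (%) whose RefSeq promoter held each motif within 100 bases before to 50 after the start, for the 37 G2 and mitosis genes with a promoter, the tested genes and all genes of the table. CHR and CCAAT box together stood in 64.9% of the members and 2.71% of the tested genes, while the GC box stood in 62.2% and 61.6%.

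Promoters of 5 members are shown because their genes cover the range of change with age described further on. Ccnb2 and Kif22 fell most, Cdc20 and Nusap1 fell by intermediate amounts, and Ube2c did not pass the test. Each window runs 5′ to 3′ on the gene's strand from 150 bases before to 30 after the RefSeq start (GRCm38.p6), with CHR and CCAAT letters on either strand in capitals. Their windows are chr9:70421525-70421704 on the minus strand for Ccnb2, chr7:127042391-127042570 on the minus strand for Kif22, chr4:118437314-118437493 on the minus strand for Cdc20, chr2:164769779-164769958 on the plus strand for Ube2c and chr2:119618148-119618327 on the plus strand for Nusap1.
Ccnb2: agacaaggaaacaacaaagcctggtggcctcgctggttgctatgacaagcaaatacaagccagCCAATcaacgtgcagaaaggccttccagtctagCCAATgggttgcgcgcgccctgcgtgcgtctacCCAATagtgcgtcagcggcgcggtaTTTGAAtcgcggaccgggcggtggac
Kif22: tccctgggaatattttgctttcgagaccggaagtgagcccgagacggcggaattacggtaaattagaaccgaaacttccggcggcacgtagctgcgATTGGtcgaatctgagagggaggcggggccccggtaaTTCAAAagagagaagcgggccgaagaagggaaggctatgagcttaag
Cdc20: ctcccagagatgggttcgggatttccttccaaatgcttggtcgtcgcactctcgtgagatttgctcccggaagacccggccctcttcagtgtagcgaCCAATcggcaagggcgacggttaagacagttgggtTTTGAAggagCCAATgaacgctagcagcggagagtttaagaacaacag
Ube2c: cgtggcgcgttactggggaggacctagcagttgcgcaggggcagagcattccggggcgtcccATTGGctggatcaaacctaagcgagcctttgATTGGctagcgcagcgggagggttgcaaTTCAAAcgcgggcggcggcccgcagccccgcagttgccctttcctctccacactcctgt
Nusap1: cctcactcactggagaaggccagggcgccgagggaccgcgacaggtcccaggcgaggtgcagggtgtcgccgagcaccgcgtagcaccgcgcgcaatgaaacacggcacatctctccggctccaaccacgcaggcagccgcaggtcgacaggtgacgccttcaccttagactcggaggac
The Ccnb2 window held 3 CCAAT boxes and 1 CHR, and the Kif22 window 1 of each. The Ube2c window had the same kinds of motif as these, and the Nusap1 window had neither. Within 100 bases before to 50 after the start, a CHR stood in 28 of the 37 members (75.7%), against 14.7% of all genes and 8.76% of tested genes. For 30 of the 37, a transcript start in the deposited tables lay within 10 bases of the RefSeq start. Mad2l1, Nuf2 and Nusap1 had neither CHR nor CCAAT in the full window, and the deposited start of Mad2l1 lay 247 bases beyond the RefSeq start. The deposited start of Kif2c, counted above among the members with a CHR, lay 3852 bases from the RefSeq start, the furthest of the 37.

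The 42 genes were well expressed in every library. Each reached at least 1 FPKM in all 6 libraries, 36 reached at least 5 FPKM in all 6, and 39 had a mean above that of the median tested gene. Ube2c, the ubiquitin-conjugating enzyme of the anaphase-promoting complex, had the highest mean (124 FPKM), followed by Top2a (53.4), the topoisomerase that untangles sister chromatids. Ect2, the exchange factor that activates RhoA at the cleavage furrow, had the lowest mean (2.70 FPKM). Summed over the 42 genes, the E12.5 mutant had 873 FPKM and the E12.5 control 756. The E13.5 mutants had 580 and 663 FPKM, and the E13.5 controls 620 and 584. All 4 E13.5 sums lay below both E12.5 sums, and the genotypes overlapped at E13.5. Scaled so that every library had the same FPKM sum, the members summed to 763 and 810 at E12.5 (mutant, control) and to 579 to 680 at E13.5, so the ages stayed apart and the order of the E12.5 pair turned round. Ube2c alone made up 14.9% to 15.0% of the members' sum at E12.5 and 18.2% to 22.6% at E13.5.

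**Figure D2:**
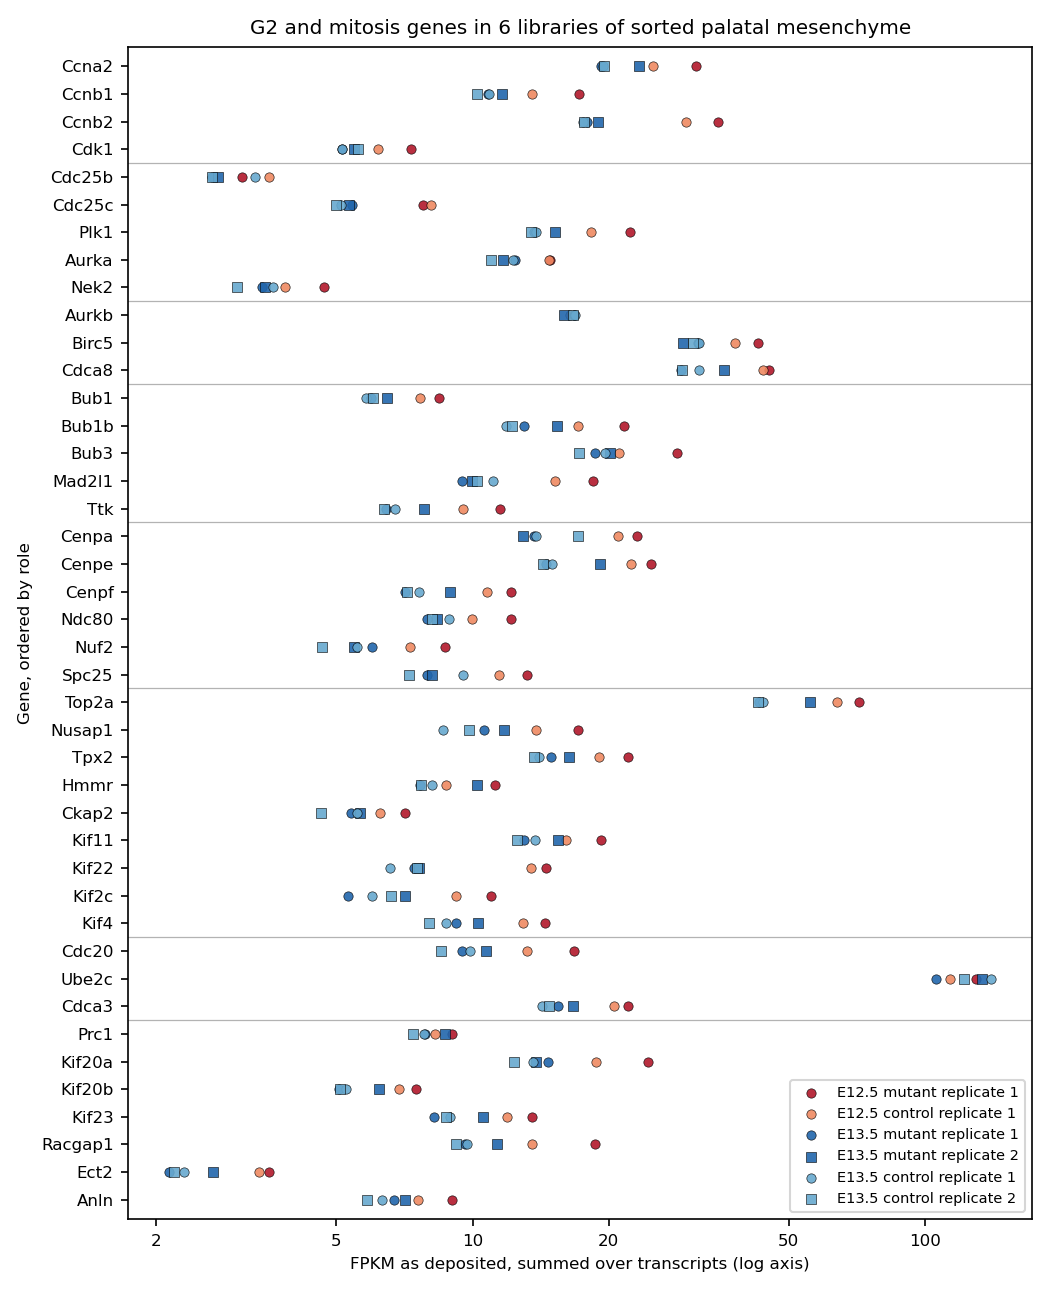
FPKM as deposited (log axis) of each of the 42 genes in the 6 libraries, ordered by role and separated by grey lines between roles; circles and squares are replicates 1 and 2. In 37 of the 42 genes all 4 E13.5 libraries (dark blue mutants, light blue controls) lie below both E12.5 libraries (red mutant, orange control), while Ube2c and Aurkb show no such gap.

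**Figure D3:**
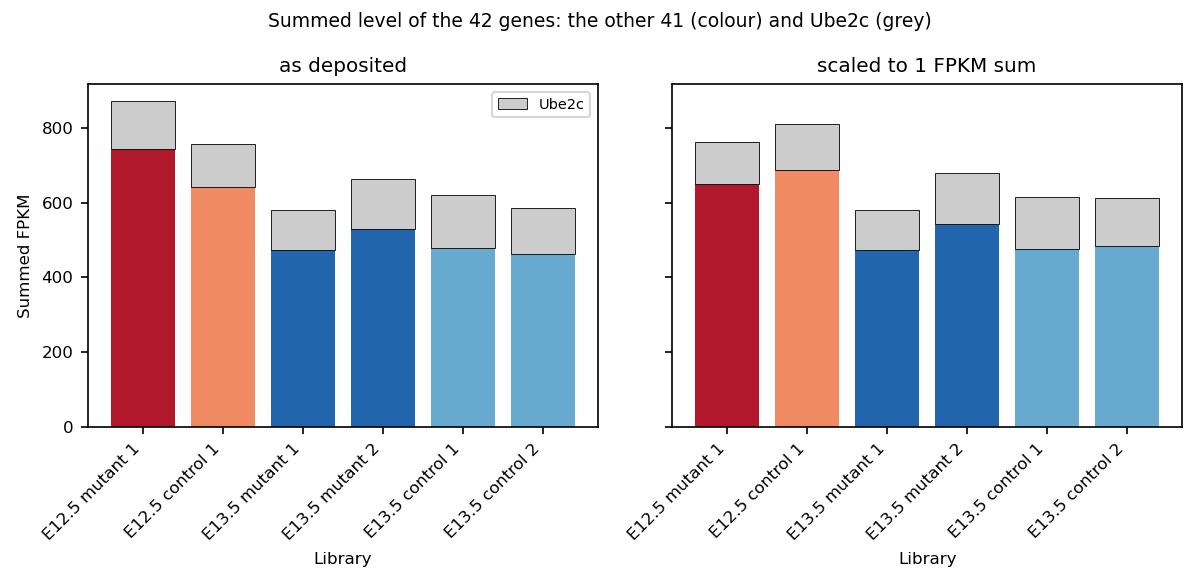
Summed FPKM of the 42 genes in each library, as deposited (left) and scaled to 1 FPKM sum (right), with Ube2c in grey on top of the other 41 genes in colour. The E13.5 sums of 580 to 663 FPKM as deposited lie below the E12.5 sums of 756 and 873.

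The comparison of E13.5 with E12.5 asks how these genes change as the shelves grow, with genotype in the fit. Most of the 42 genes fell: 27 were lower at E13.5 (64.3%), 0 were higher and 15 did not pass the test (limma on log2(FPKM + 1), adjusted p under 0.05 over all tested genes), where 9.26% of all tested genes were lower and 7.45% higher. The median member differed by -0.46 on the log2 scale and the median tested gene by -0.07. Of members with a promoter, a CHR stood in 19 of the 23 that fell and in 12 of the 14 that did not pass. All but 1 of the 42 had a negative difference, as did 60.3% of all tested genes. In 37 of the 42 (88.1%), all 4 E13.5 libraries lay below both E12.5 libraries, which held for 22.9% of tested genes, and the count was also 37 after scaling to 1 FPKM sum. The count that fell was 23, 26 and 29 under the 3 other scalings of the libraries. Of the 27, Bub1 was called under 1 of these scalings, Ccna2, Kif23 and Ect2 under 2, and the rest under all 3. Over the 2 E12.5 libraries the call rested on both, with 2 genes past the threshold without the E12.5 mutant and 8 without the E12.5 control, and with no filter on low values 0 passed (smallest limma adjusted p = 0.0618).

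Other quantities moved with age in these libraries. Over the 10 erythroid markers found, mostly embryonic globins, the sum was 729 and 686 FPKM at E12.5 (mutant, control), 468 and 261 in the E13.5 mutants and 586 and 495 in the E13.5 controls. Among the E13.5 libraries, mutant replicate 2 had the lowest erythroid sum and the highest member sum. Mutant replicate 1 had the next lowest erythroid sum and the lowest member sum, and the E12.5 libraries were highest in both sums. The 10 neuronal markers, 7 of them with means under 1 FPKM, summed to 43.8 and 34.0 FPKM at E12.5 (mutant, control) and to 50.6 to 90.9 at E13.5. Nearly all of that sum came from Nefl, Nefm and Gap43. Tubb3 reached at most 1.48 FPKM in any library, Stmn2 at most 0.806 and Elavl3 at most 0.0711. The part of the RNA of these erythroid and neuronal markers in the age difference was not tested. Xist RNA was in both E12.5 libraries but, at E13.5, only in mutant replicate 2, so age and Xist were partly confounded. That E13.5 library was below the E12.5 mutant in 41 of the 42 genes, with a median difference of -0.41 on the log2 scale. The median tested gene was at -0.10 there, and 39 members lay below it. Mutant replicate 1 at E13.5, without Xist RNA, was below the E12.5 mutant in 41 as well. The part of sex in the age difference was not tested.

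Among the cyclins and their kinase, 3 of 4 fell. Ccnb2, a B-type cyclin, had E12.5 values of 34.9 FPKM (mutant) and 29.6 FPKM (control), and E13.5 values of 17.9 and 19.0 FPKM (mutants) and 17.5 and 17.6 FPKM (controls). The E13.5 libraries did not overlap those at E12.5, and Ccnb2 (chromosome 9, 70407689 to 70421554) fell by 0.80 in log2 units (SE 0.108, limma adjusted p = 0.00195). Ccna2, the A-type cyclin of S phase and G2, had E12.5 values of 31.2 FPKM (mutant) and 25.1 FPKM (control), and E13.5 values of 19.3 and 23.4 FPKM (mutants) and 19.5 and 19.5 FPKM (controls). Again every E13.5 library was below both at E12.5, and it fell by 0.44 in log2 units (SE 0.121, limma adjusted p = 0.0355). This locus shares 12.1% of its length with Exosc9. Ccnb1, the main mitotic cyclin, ranged from 10.2 to 11.6 FPKM at E13.5 against 13.5 and 17.2 at E12.5, and fell by 0.45 in log2 units (SE 0.110, limma adjusted p = 0.0225). Cdk1, the kinase all 3 cyclins bind, had 5.14 to 5.58 FPKM at E13.5 against 6.17 and 7.31, a difference of -0.29 (SE 0.105, limma adjusted p = 0.0915) that did not pass.

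Of the 5 phosphatases and kinases of mitotic entry and progression, Cdc25c and Plk1 fell. Plk1, the polo kinase of mitotic entry and the centrosome, had E12.5 values of 22.3 FPKM (mutant) and 18.2 FPKM (control), and E13.5 values of 13.7 and 15.2 FPKM (mutants) and 13.8 and 13.4 FPKM (controls). The ages did not overlap, and Plk1 fell by 0.50 in log2 units (SE 0.110, limma adjusted p = 0.0167). Cdc25c, which removes the inhibitory phosphates from Cdk1, had E12.5 values of 7.77 FPKM (mutant) and 8.10 FPKM (control), and E13.5 values of 5.41 and 5.33 FPKM (mutants) and 5.13 and 4.99 FPKM (controls). The E12.5 control lay slightly above the E12.5 mutant, all 4 E13.5 libraries lay below both, and it fell by 0.52 in log2 units (SE 0.0984, limma adjusted p = 0.00842). Its relative Cdc25b had E12.5 values of 3.09 FPKM (mutant) and 3.55 FPKM (control), and E13.5 values of 2.66 and 2.74 FPKM (mutants) and 3.31 and 2.66 FPKM (controls). E13.5 control replicate 1 lay above the E12.5 mutant, and its difference of -0.17 (SE 0.109, limma adjusted p = 0.299) did not pass. Aurka, the centrosomal Aurora kinase, had a difference of -0.30 (SE 0.105, limma adjusted p = 0.0797), and Nek2, a kinase of centrosome separation, one of -0.26 (SE 0.108, limma adjusted p = 0.123), and neither passed.

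The 3 chromosomal passengers, which correct faulty attachments and later direct cytokinesis, had 1 gene that fell. Cdca8 (borealin) had E12.5 values of 45.2 FPKM (mutant) and 43.8 FPKM (control), and E13.5 values of 28.9 and 35.9 FPKM (mutants) and 31.7 and 29.0 FPKM (controls). The E12.5 pair was close together and above every E13.5 library, and Cdca8 fell by 0.50 in log2 units (SE 0.127, limma adjusted p = 0.0271). Birc5 (survivin) had 29.1 to 31.6 FPKM at E13.5 against 38.1 and 42.7, and its difference of -0.38 (SE 0.115, limma adjusted p = 0.0502) narrowly missed the threshold. Aurkb (chromosome 11, 69045643 to 69051662), the kinase of the complex, had E12.5 values of 16.8 FPKM (mutant) and 16.4 FPKM (control), and E13.5 values of 16.8 and 16.0 FPKM (mutants) and 16.8 and 16.6 FPKM (controls). Its libraries lay within 16.0 to 16.8 FPKM, and the difference with age was -0.0039, with a 95% interval of -0.23 to 0.23. The direction of that value turned under each of the 3 other scalings, to 0.06, 0.08 and 0.07. Incenp, the scaffold of the same complex and not a member of the 42, had 29.9 and 25.8 FPKM at E12.5 and 15.7 to 18.2 at E13.5 and fell by 0.67 (SE 0.114, adjusted p = 0.00568).

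In the spindle assembly checkpoint, 4 of 5 genes fell. Mad2l1 (Mad2), the inhibitor of Cdc20, had E12.5 values of 18.5 FPKM (mutant) and 15.2 FPKM (control), and E13.5 values of 9.48 and 9.96 FPKM (mutants) and 11.1 and 10.2 FPKM (controls). The ages were well apart, and it fell by 0.67 in log2 units (SE 0.1195, limma adjusted p = 0.00692). Bub1b (BubR1), which binds Cdc20 together with Mad2, had E12.5 values of 21.6 FPKM (mutant) and 17.1 FPKM (control), and E13.5 values of 13.02 and 15.4 FPKM (mutants) and 11.9 and 12.2 FPKM (controls). Within each age the mutants lay above the controls, the ages did not overlap, and Bub1b fell by 0.53 in log2 units (SE 0.112, limma adjusted p = 0.0139). Ttk (Mps1), the kinase that starts the checkpoint signal, had E12.5 values of 11.5 FPKM (mutant) and 9.51 FPKM (control), and E13.5 values of 6.44 and 7.80 FPKM (mutants) and 6.75 and 6.36 FPKM (controls). All 4 values at E13.5 were below both at E12.5, and Ttk fell by 0.55 in log2 units (SE 0.112, limma adjusted p = 0.0116). The kinase Bub1, with 5.81 to 6.47 FPKM at E13.5 against 7.65 and 8.44, fell by 0.36 in log2 units (SE 0.0993, limma adjusted p = 0.0377). Bub3, which carries Bub1 and BubR1 to kinetochores, had E12.5 values of 28.4 FPKM (mutant) and 21.1 FPKM (control), and E13.5 values of 18.7 and 20.1 FPKM (mutants) and 19.6 and 17.2 FPKM (controls). The E12.5 mutant lay far above the other 5 libraries as deposited. After scaling to 1 FPKM sum it had 24.8 FPKM, against 22.6 in the E12.5 control. The Bub3 difference with age of -0.36 (SE 0.124, limma adjusted p = 0.0757) did not pass.

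At the centromere and kinetochore 5 of 6 genes fell. Cenpa, the histone H3 variant that marks centromeres, had E12.5 values of 23.0 FPKM (mutant) and 21.0 FPKM (control), and E13.5 values of 13.6 and 12.9 FPKM (mutants) and 13.8 and 17.1 FPKM (controls). Control replicate 2 was the highest of the E13.5 libraries yet below both at E12.5, and Cenpa fell by 0.59 in log2 units (SE 0.129, limma adjusted p = 0.0159). Cenpe, the kinetochore motor that moves chromosomes to the metaphase plate, had E12.5 values of 24.9 FPKM (mutant) and 22.4 FPKM (control), and E13.5 values of 14.6 and 19.1 FPKM (mutants) and 15.0 and 14.3 FPKM (controls). Mutant replicate 2 stood above the other 3 E13.5 libraries, and Cenpe fell by 0.57 in log2 units (SE 0.127, limma adjusted p = 0.0169). Cenpf fell by 0.52 in log2 units (SE 0.115, limma adjusted p = 0.0163). Of the Ndc80 complex, which holds microtubule ends, Spc25 fell by 0.53 in log2 units (SE 0.126, limma adjusted p = 0.0211) and Nuf2 fell by 0.49 in log2 units (SE 0.108, limma adjusted p = 0.0165). Ndc80 itself, with 7.95 to 8.89 FPKM at E13.5 against 9.98 and 12.2, differed by -0.37 (SE 0.113, limma adjusted p = 0.0529) and did not pass.

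Of the 9 genes of chromatin and spindle, 6 fell. Kif22 (chromosome 7, 127027731 to 127042420), a chromokinesin that pushes chromosome arms away from the poles, had E12.5 values of 14.5 FPKM (mutant) and 13.5 FPKM (control), and E13.5 values of 7.44 and 7.60 FPKM (mutants) and 6.59 and 7.53 FPKM (controls). The E13.5 libraries lay close together and far below both E12.5 libraries, and Kif22 fell by 0.86 in log2 units (SE 0.103, limma adjusted p = 0.00113), the largest difference of the 42, and it was called with each library left out in turn, as was Ccnb2. Kif2c, a kinesin that takes microtubules apart at centromeres, had E12.5 values of 10.98 FPKM (mutant) and 9.21 FPKM (control), and E13.5 values of 5.31 and 7.11 FPKM (mutants) and 6.01 and 6.60 FPKM (controls). Mutant replicate 1 was the lowest library and the ages were apart, and Kif2c fell by 0.61 in log2 units (SE 0.129, limma adjusted p = 0.0135). The chromokinesin Kif4 had E12.5 values of 14.4 FPKM (mutant) and 12.95 FPKM (control), and E13.5 values of 9.17 and 10.3 FPKM (mutants) and 8.72 and 8.02 FPKM (controls). Both mutants exceeded both controls at E13.5, all 4 lay under the E12.5 pair, and Kif4 fell by 0.55 in log2 units (SE 0.105, limma adjusted p = 0.00896). RefSeq also lists a pseudogene named for each of Ccnb1, Ccnb2, Kif22 and Kif4, and the deposited tables list the 1 for Kif4 at 0 in every library. Nusap1, a microtubule-bundling protein of the spindle, had E12.5 values of 17.1 FPKM (mutant) and 13.8 FPKM (control), and E13.5 values of 10.6 and 11.7 FPKM (mutants) and 8.62 and 9.84 FPKM (controls). Mutants lay above controls within each age and the ages did not overlap, and Nusap1 fell by 0.56 in log2 units (SE 0.108, limma adjusted p = 0.00959). Top2a had E12.5 values of 71.5 FPKM (mutant) and 63.9 FPKM (control), and E13.5 values of 42.9 and 55.6 FPKM (mutants) and 43.8 and 42.7 FPKM (controls). Mutant replicate 2 was again the highest at E13.5, and Top2a fell by 0.55 in log2 units (SE 0.135, limma adjusted p = 0.0243). Tpx2, the activator of Aurora A on the spindle, fell by 0.45 in log2 units (SE 0.105, limma adjusted p = 0.0193). Hmmr and Ckap2, spindle-associated proteins, and Kif11 (Eg5), which separates the poles, differed by -0.22, -0.28 and -0.35 and did not pass.

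Of the 3 genes of mitotic exit and the ubiquitin ligase, Cdc20 and Cdca3 fell. Cdc20, the activator of the anaphase-promoting complex, had E12.5 values of 16.7 FPKM (mutant) and 13.2 FPKM (control), and E13.5 values of 9.49 and 10.7 FPKM (mutants) and 9.85 and 8.51 FPKM (controls). Every E13.5 value was below both E12.5 values, and Cdc20 fell by 0.58 in log2 units (SE 0.115, limma adjusted p = 0.0104). Cdca3, a protein linked to the destruction of the Cdk1 inhibitor Wee1, ranged from 14.2 to 16.7 FPKM at E13.5 against 20.6 and 22.1, and fell by 0.46 in log2 units (SE 0.105, limma adjusted p = 0.0186). Ube2c (chromosome 2, 164769929 to 164772902), which works with the same ligase as Cdc20, had E12.5 values of 130 FPKM (mutant) and 113 FPKM (control), and E13.5 values of 106 and 134 FPKM (mutants) and 140 and 122 FPKM (controls). The ages overlapped fully, and its difference of 0.04 (95% interval -0.31 to 0.39, adjusted p = 0.888) was the only positive value of the 42. That sign turned without the E12.5 control (-0.12), E13.5 mutant replicate 2 (-0.01) or E13.5 control replicate 1 (-0.03).

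In the midzone and cytokinesis group 4 of 7 genes fell. Racgap1, the GTPase-activating subunit of centralspindlin, had E12.5 values of 18.7 FPKM (mutant) and 13.6 FPKM (control), and E13.5 values of 9.63 and 11.3 FPKM (mutants) and 9.70 and 9.18 FPKM (controls). The E12.5 mutant was far above the rest as deposited, and the E12.5 control was next. After scaling to 1 FPKM sum they had 16.3 and 14.5 FPKM. Racgap1 fell by 0.63 in log2 units (SE 0.119, limma adjusted p = 0.00854). Its partner, the kinesin Kif23, fell by 0.44 in log2 units (SE 0.119, limma adjusted p = 0.0322), and Ect2, which centralspindlin recruits, fell by 0.43 in log2 units (SE 0.109, limma adjusted p = 0.0271). Kif20a, a kinesin that carries the passenger complex to the midzone, had E12.5 values of 24.4 FPKM (mutant) and 18.8 FPKM (control), and E13.5 values of 14.7 and 13.8 FPKM (mutants) and 13.6 and 12.3 FPKM (controls). The E13.5 libraries were close together under both E12.5 libraries, and Kif20a fell by 0.62 in log2 units (SE 0.112, limma adjusted p = 0.00724). Its locus overlaps Brd8 and Cdc23, and the largest overlap with a single entry of these genes covers 18.4% of it. Prc1, which bundles midzone microtubules, had E12.5 values of 8.99 FPKM (mutant) and 8.25 FPKM (control), and E13.5 values of 7.86 and 8.69 FPKM (mutants) and 7.81 and 7.40 FPKM (controls). Mutant replicate 2 lay between the E12.5 libraries, and the difference of -0.11 (SE 0.101, limma adjusted p = 0.494) did not pass. Neither did that of the furrow scaffold Anln, -0.31 (SE 0.0999, limma adjusted p = 0.0608), or of the kinesin Kif20b, -0.36 (SE 0.109, limma adjusted p = 0.0502).

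**Figure D4:**
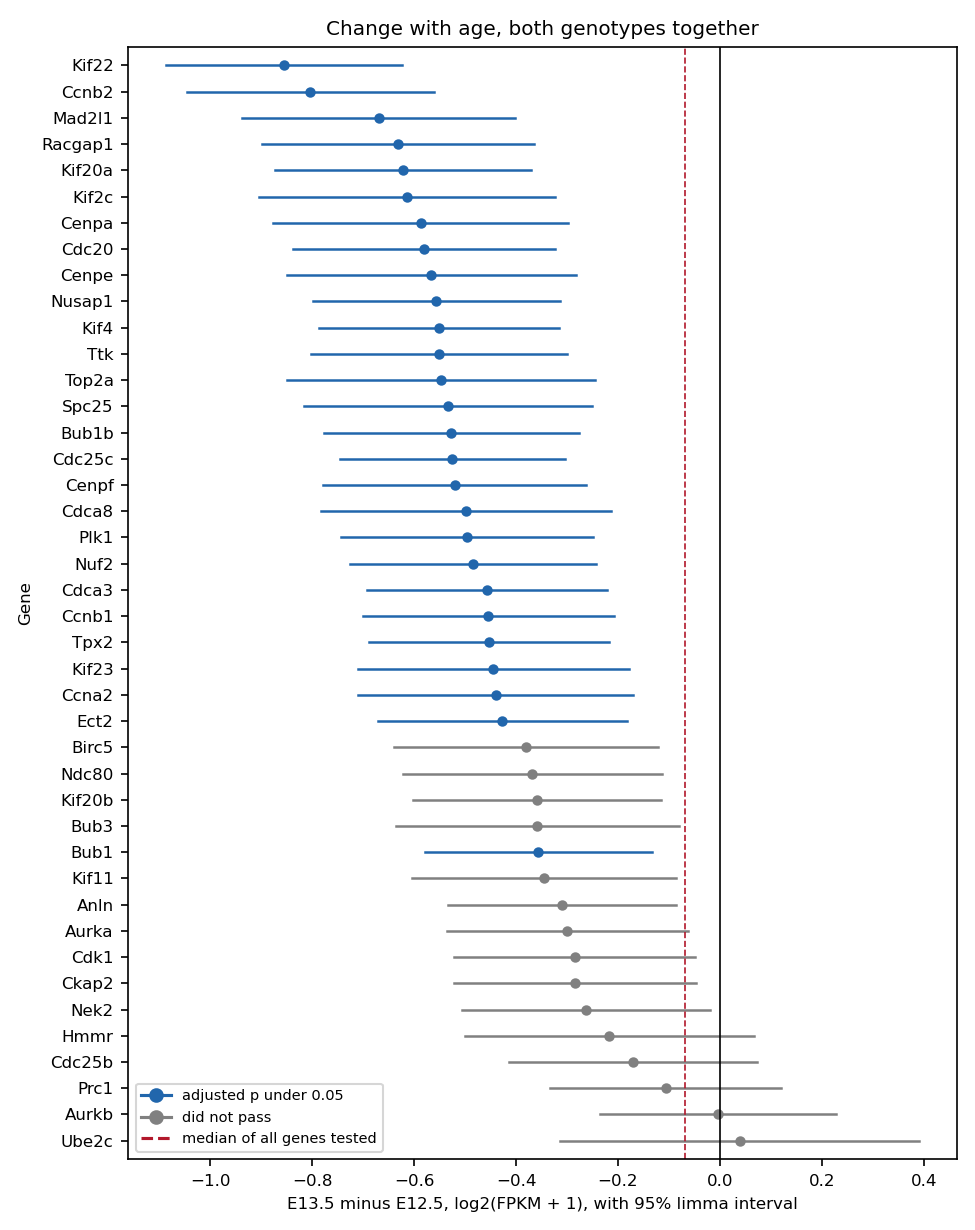
Difference between E13.5 and E12.5 on the log2(FPKM + 1) scale for each of the 42 genes, with 95% limma intervals, sorted by size; blue points passed the adjusted threshold, grey did not, and the dashed line is the median of all tested genes. Points run from -0.86 (Kif22) to 0.04 (Ube2c), and 40 of the 42 lie left of the dashed line.

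Split by genotype, with the lone E12.5 library of each assumed to vary like the others, the direction was alike. In controls 2 of the 42 fell, Kif22 by 0.85 and Ccnb2 by 0.72 on the log2 scale (adjusted p = 0.0196 and 0.0334), where 0.759% of tested genes fell. The median member differed by -0.42 and the median gene by -0.0017 in controls. In mutants 8 fell, where 3.58% of tested genes did: Ccnb2, Kif22, Mad2l1, Racgap1, Cenpa, Kif2c, Kif20a and Cdc20, by 0.88 (Ccnb2) to 0.68 (Cdc20). The median member differed by -0.53 and the median gene by -0.13 in mutants. After scaling to 1 FPKM sum the medians were -0.48 in controls and -0.33 in mutants, with 3 and 2 genes called, so the order of the genotypes turned with the scaling. The difference was negative in 40 of the 42 genes in controls, where 50.2% of tested genes were negative. In mutants it was negative in all 42, where 67.1% of tested genes were. The 2 counts of called genes do not show that the genotypes differ. The test of that difference, the interaction of genotype and age, called 0 of the 42 with limma (0.037% of tested genes), 0 at unadjusted p under 0.05 (5.81% of tested genes), and the smallest adjusted p was 0.841. Its largest negative values were in Mad2l1 (-0.38), Bub3 (-0.34) and Cenpa (-0.33), with standard errors of 0.214 to 0.243.

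The comparison of mutants with controls at E13.5 asks whether these genes differ when Osr2 is mutated. None of the 42 passed: limma called 0 of them, against 1.29% of all tested genes, and 0 had an unadjusted p under 0.05, against 9.24% of all tested genes. The smallest adjusted p was 0.645, and the 95% intervals of the 42 differences lay within -0.52 to 0.54 on the log2 scale. The median interval reached 0.29 to either side of its estimate. The differences ran from -0.20 to 0.25 with a median of 0.08, against 0.04 for the median tested gene. They were positive in 32 of the 42 genes, where 61.6% of all tested genes were positive, and positive in 31 or 32 under each other scaling. Both mutants lay above both controls in 10 genes (23.8%), where 24.8% of tested genes did, and below in 2 (4.76%), where 13.2% did.

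The largest differences at E13.5 did not pass the test. Nusap1 was at 10.6 and 11.7 FPKM in the mutant pair against 8.62 and 9.84 in the control pair, a mean of 11.2 ± 0.776 against 9.23 ± 0.858 (SD, n = 2 each; log2 0.25, SE 0.130, limma adjusted p = 0.645). Bub1b had 14.2 ± 1.66 FPKM against 12.1 ± 0.266 (SD, n = 2 each; log2 0.21, adjusted p = 0.752 with limma). Kif4 had 9.73 ± 0.791 against 8.37 ± 0.492 (SD, n = 2 each; log2 0.19, limma adjusted p = 0.775). In these 3 genes both mutants lay above both controls. On the other side, Cenpa had 13.3 ± 0.519 FPKM in mutants against 15.5 ± 2.34 in controls (SD, n = 2 each; log2 -0.20, limma adjusted p = 0.796), Ube2c differed by -0.13 and Mad2l1 by -0.12. The Ube2c mutants, 106 and 134 FPKM, spanned control replicate 2 at 122 FPKM, and without mutant replicate 1 the sign of its difference turned (0.04).

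The replicates of 1 genotype differed about as much as the genotypes. Mutant replicate 2, the only E13.5 library with Xist RNA, lay above mutant replicate 1 in 35 of the 42 genes, by a median of 0.11 on the log2 scale (median tested gene 0.05), and was the highest of the 4 E13.5 libraries in 28. Control replicate 1 lay above control replicate 2 in 32, by a median of 0.07 (median tested gene 0.06). Without mutant replicate 2 the genotype differences were positive in 23 of the 42 genes, with a median of 0.0084 (median tested gene 0.022). Without mutant replicate 1, which leaves 1 title number at this age, they were positive in 35, with a median of 0.15 (median tested gene 0.065). The part of sex in these differences was not tested.

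At E12.5 there was 1 library of each genotype, and the sign depended on the scaling. As deposited, 40 of the 42 genes were higher in the mutant, with a median difference of 0.19 on the log2 scale, where the median tested gene was at 0.18. After scaling to 1 FPKM sum, 9 of the 42 were higher and the median was -0.08, with the median tested gene at -0.06. None reached a difference of 1 on the log2 scale among the 39 whose higher library reached 5 FPKM, where 1.07% of all such genes did. The largest were Racgap1 (18.7 FPKM in the mutant, 13.6 in the control), Bub3 (28.4 and 21.1) and Kif20a (24.4 and 18.8), and each remained above 0 after scaling, at 0.16, 0.13 and 0.08. Cdc25b (3.09 and 3.55 FPKM) and Cdc25c (7.77 and 8.10) were the only genes lower in the mutant as deposited.

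Over both ages together, with age in the fit, limma called 0 of the 42 by genotype, against 1.44% of tested genes, with 2 at unadjusted p under 0.05, where 12.99% of all tested genes were, and a smallest adjusted p of 0.314. Nusap1 (0.26), Bub1b (0.25) and Racgap1 (0.23) had the largest positive differences on the log2 scale, and Cdc25b (-0.12), Cenpa (-0.09) and Ube2c (-0.02) the largest negative ones. As deposited 38 of the 42 were positive, with a median of 0.12 and the median tested gene at 0.09. After scaling to 1 FPKM sum 26 were positive, with a median of 0.02 and the median tested gene at 0.0018.

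**Figure D5:**
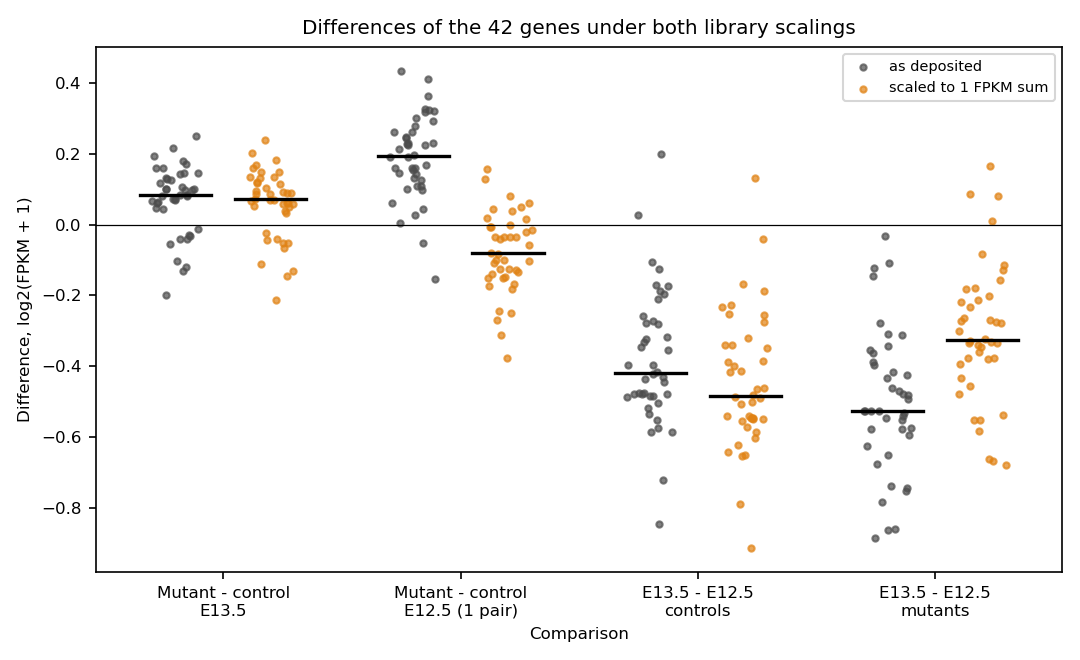
Differences of the 42 genes on the log2(FPKM + 1) scale in 4 comparisons, as deposited (grey) and scaled to 1 FPKM sum (orange); each point is a gene and each black line the median. The genotype differences at E12.5 move from a median of 0.19 to -0.08 with the scaling, while the medians of both age comparisons stay below 0.

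The members had 62 transcript lines, and 11 of the 42 genes had more than 1. In 9 of the 11 the same transcript was highest in all 6 libraries. For Birc5 the 972-base transcript held 92.3% to 95.9% of the gene's FPKM, and the longer one of 3416 bases the rest. For Bub1 the 4334-base transcript held 56.6% to 84.1%. Racgap1 has near-identical transcripts of 2934 and 2930 bases, and the share of the first ran from 0.0913% to 98.5% between libraries. It was the higher in E13.5 mutant replicate 2 (98.5%) and E13.5 control replicate 1 (65.7%), and at most 3.41% in the other 4. Its summed value, used throughout, was 13.6 and 18.7 FPKM at E12.5 and 9.18 to 11.3 at E13.5.

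Other cell-cycle lists, which share no gene with the 42, also held genes that fell with age. Of their tested genes, 14 of 31 spindle and centrosome genes fell, 12 of 32 of the kinetochore and centromere, 8 of 19 of cytokinesis, 5 of 19 of condensin and cohesin, 4 of 18 of the anaphase-promoting complex and separase, and 7 of 23 of mitotic entry and its transcription, with 0 rising in these 6 lists, where 9.26% of all tested genes fell and 7.45% rose. List medians ran from -0.36 (spindle and centrosome) to -0.15 (anaphase-promoting complex and separase) on the log2 scale. Foxm1, a transcription factor of G2 and M genes, had 30.9 and 28.6 FPKM at E12.5 (mutant, control) and 17.3 to 19.7 at E13.5 and fell by 0.66 (SE 0.106, adjusted p = 0.00406). Nfya, a subunit of NF-Y, fell by 0.72 (SE 0.109, adjusted p = 0.00317), and Ncapd2, a condensin subunit, by 0.88 (SE 0.106, adjusted p = 0.00111). Spag5, a spindle protein, fell by 0.85 (adjusted p = 0.00109), from 9.48 and 8.93 FPKM to 4.23 to 5.07.

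Of 40 S phase genes 15 fell and 2 rose (9.26% and 7.45% of all tested genes), with a median of -0.28. Fen1, the flap endonuclease of lagging-strand synthesis, fell by 0.73 (adjusted p = 0.00468), and Mcm5, a subunit of the replicative helicase, by 0.64 (adjusted p = 0.00446). The 24 tested genes of G1 and CDK inhibitors went both ways, with 5 lower, 4 higher and a median of 0.03, beside the same 9.26% lower and 7.45% higher of all tested genes. Myc had 15.1 and 7.99 FPKM at E12.5 (mutant, control) and 20.7 to 33.6 at E13.5, and rose by 1.19 (SE 0.115, adjusted p = 0.000318), while Mycn fell by 1.06 (adjusted p = 0.00247). These 8 lists hold 200 different tested genes, 6 of them in more than 1 list. By genotype at E13.5, limma called 0 of the 200, with 12 at unadjusted p under 0.05, where 9.24% of all tested genes were. Of these 12, 8 were among the 24 tested genes of G1 and CDK inhibitors. Over both ages limma called 1 of the 200 by genotype, Myc, which was higher in mutants by 0.66 (SE 0.109, limma adjusted p = 0.0176). The adjusted p for Myc was 0.311 with no filter on low values, 0.0841 without the E12.5 mutant, 0.0864 without the E12.5 control, 0.0769 without E13.5 mutant replicate 1 and 0.0527 without E13.5 control replicate 1, so this call was lost in each of these fits, and with the title number as a block (0.0779).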

How the data were processed

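RNA sequencing of sorted cells was measured in 6 libraries. Per the labels' protocols, RNA was poly A selected, amplified by 15 cycles of PCR and read as pairs of 75 bases. The same protocols name 2 library kits, Nextera and TruSeq stranded. Per the submitters' processing notes, mm9 and mm10 were the builds and Bowtie 0.12.7 and TopHat 1.4.1 the tools, and no source used here gives a version of Cufflinks. The deposited tables hold 1 line per RefSeq transcript (31579 lines) with FPKM values, computed by the authors with Cufflinks per the file headers. The deposited coverage signal, the mean depth over a transcript, was used only to estimate fragments per library. The files hold no read counts, so no counting interval is given. All 42 members lay inside their GRCm38 (mm10) locus within 10 bases. Where strand was not used in counting, reads of overlapping genes cannot be told apart.

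FPKM were summed per symbol. The 25 symbols with a failed estimate in any library were left out. Genes with at least 1 FPKM in at least 2 libraries were tested with limma 3.58.1 in R 4.3.3 (moderated test, intensity trend, two-sided) on log2(FPKM + 1), which understates changes of low genes, with Benjamini-Hochberg adjustment over 10799 genes and 0.05 as the threshold. Age within each genotype, the interaction and the E13.5 genotype contrast came from a fit of the 4 group means. In that fit the lone E12.5 libraries added nothing to the spread, which had 2 residual degrees of freedom. An additive fit gave age and genotype over both ages. The E12.5 pair was described by size only (1 on the log2 scale, 5 FPKM or more in the higher library). The fits were tested on simulated data. Alternatives changed the pseudocount, filter, library scaling, variance model, transcript summing, libraries included and a block on the title number, which was added after seeing the data.

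The members, lists and tests were chosen with earlier results of these data known. The value of 1 marker gene is not reported here. Values in every library are given for the member with the highest mean of each role, for up to 12 members past the threshold and for the 3 largest differences each way in a contrast, and Incenp, Foxm1, Nfya and others are the largest changes of their lists. Promoters and motif positions come from RefSeq (GRCm38.p6), and the 5 sequences shown were chosen after the values were seen. Tables and figures were made with Python 3.11.15, pandas 2.3.3, numpy 2.4.6 and matplotlib 3.10.9.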

Additional observations from a re-analysis of the deposited data

How the results depend on the processing

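No genotype or interaction call appeared among the 42 genes under any alternative, by scaling, filter, pseudocount, variance model, transcript choice or with 1 library left out (for the interaction, 1 of the 4 E13.5 libraries, since it could not be fitted without an E12.5 library). The count of genes that fell with age was 23 to 29 under the scalings, pseudocounts and other filters, 25 with the highest transcript in place of the sum, 0 with no filter on low values and 2 to 28 with 1 library left out. In controls the count of 2 became 0 with no filter, 1 with the highest transcript and 0 to 8 with 1 library left out. In mutants the count of 8 became 0 with no filter, 5 with a mean of at least 1 FPKM, 2, 2 and 3 under scaling to 1 FPKM sum, the median ratio and the upper quartile, 4 with the highest transcript and 4 to 20 with 1 library left out. The median log2 level of the members per library, taken as E13.5 minus E12.5, was -0.419 with a pseudocount of 5. With the main pseudocount of 1, these library medians were 4.07 and 3.86 at E12.5 (mutant, control) and 3.32 to 3.54 at E13.5. The E2F count was 0 in the short promoter window. The numbers in the sample titles, which mutants and controls share for 2962 and 3048, were added as a replicate block after seeing the data. With this block limma called 0 of the 42 by genotype at E13.5, 0 over both ages and 0 in the interaction, and Ube2c turned by genotype at E13.5 (0.0365) and over both ages (0.103). Since 3047 has only mutant replicate 1, the block gave the same differences as leaving that library out. Age could not be fitted with this block.

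The median difference in the E12.5 pair turned negative under scaling to 1 FPKM sum (-0.0809), the median ratio (-0.0102) and the upper quartile (-0.00551). Aurkb turned with age under the same scalings (0.0621, 0.0821 and 0.0669), ranged from -0.0334 to 0.0257 with 1 library left out, turning without the E12.5 mutant or E13.5 mutant replicate 2, and turned in controls under scaling to 1 FPKM sum (-0.0403). Ube2c ranged with age from -0.123 to 0.201, turning without the E12.5 control, E13.5 mutant replicate 2 or E13.5 control replicate 1. By genotype at E13.5 it ranged from -0.301 to 0.0365, turning without mutant replicate 1, and over both ages from -0.132 to 0.103, turning without mutant replicate 1 or control replicate 1. Over both ages Cdc25b turned with the highest transcript (0.0585), and Cenpa ranged from -0.200 to 0.0247, turning without control replicate 2. In the interaction Cdc25b ranged from -0.0658 to 0.169, turning without control replicate 2, and Kif4 from -0.0272 to 0.123, turning without mutant replicate 2 or control replicate 2. The causes were not tested. With 2 libraries a group at E13.5 and 1 at E12.5, the spread between libraries limits every comparison.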
